A study of Homo sapiens with 8 samples.

Results

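TRIM44 siRNA 9, one of a pair of small interfering RNAs (siRNA) aimed at TRIM44, was compared with a negative control siRNA in HSC39, an established human gastric cancer line of the signet ring cell type. The arrays were chosen by their labels alone: the 2 arrays of siRNA 9 and the 4 of negative siRNA (All stars negative SiRNA), 6 of the 8 arrays of the series; the other 2 are of TRIM44 siRNA 7. RNA was measured on Affymetrix whole-transcript arrays, and 19158 probe sets that carry exactly 1 gene symbol, of 18404 genes, were compared. The labels give no genotype or agent beyond the siRNA. Their treatment text, the same for all samples, names 100 nM TRIM44 siRNA (written nm) for 48 h, without a dose for the negative siRNA. The series counts 4 biological replicates per condition by taking siRNA 7 and siRNA 9 together, and does not say whether arrays of 1 reagent came from separate cultures. The p-values therefore reflect only how far these samples spread, and that spread may be technical.

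An siRNA loads into Argonaute proteins and guides the cleavage of transcripts that pair with it along its length, and can also lower transcripts that pair only with its seed. For this reason reagents of different sequence against 1 gene are set side by side. TRIM44 belongs to the tripartite motif family, most of whose members are ubiquitin ligases. It lacks the RING domain that gives them this activity and carries a zinc finger of the ubiquitin-specific protease type. Ubiquitin is passed from activating (E1) to conjugating (E2) enzymes and ligases (E3), removed by deubiquitinases, and read by the proteasome, which also supplies peptides to MHC class I molecules. Signet ring cells are gastric tumour cells filled with mucin.

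Levels are given on the log2 scale of the deposited values, and a difference is siRNA 9 minus negative siRNA on that scale, so that 1 stands for a doubling. Array medians lay between 6.78 and 6.87, and any 2 arrays had a correlation of 0.991 to 0.997 over the probe sets. In a principal component analysis the leading axis held 32.5% of the variance, and on it negative array 2 lay at 13.6, beside siRNA 9 at 15.5 and 17.2, while the other 5 arrays lay between -11.8 and -5.57. Several genes and lists for which negative array 2 lay beside siRNA 9 are also given without it. Where it was the negative array nearest to siRNA 9, leaving it out had to widen the difference, so those adjusted p-values are no separate support. With negative siRNA the list of epithelial markers had a median level of 10.77 (7.53 over all probe sets), intestinal and goblet cell genes one of 10.06 and gastric differentiation genes one of 6.22. Leukocyte and endothelial markers stood at 5.95, although LYZ, the lysozyme gene among them, stood at 11.57, and markers of mesenchyme and fibroblasts stood at 6.36. Levels of different probe sets also depend on their probes, so no cell type is read from these medians. In bulk RNA, fewer cells of a type and less RNA per cell cannot be told apart.

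The targeted transcript fell. Negative arrays 1 to 4 read 11.91, 12.02, 11.91 and 11.77 for TRIM44, and siRNA 9 read 11.11 and 11.14. Both siRNA 9 arrays lay below all negative arrays, and they lay closer together than the negative arrays did. The negative mean was 11.90 ± 0.11 (SD, n = 4) and the siRNA 9 mean 11.12 ± 0.02 (SD, n = 2), a difference of -0.78 (SE 0.12, limma adjusted p = 0.0155). On the linear scale 58.2% of the negative level remained (95% confidence interval 48.4% to 69.8%). The exact permutation p (2-sided) was 0.0667, which is the minimum for 15 assignments of 6 arrays. With siRNA 7 the arrays read 10.85 and 11.27, and the reagents differed by 0.06 for TRIM44 (adjusted p = 0.903).

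Across the genome, a small share of probe sets passed the threshold in siRNA 9 against negative siRNA. Of 19158 probe sets, 177 (0.924%) passed an adjusted p of 0.05 in limma, with 64 higher (0.334%) and 113 lower (0.590%). They belong to 176 genes, of which 64 rose and 112 fell on at least 1 probe set. Taking 1 probe set per gene, the one of highest mean, 171 of 18404 genes passed (0.929%), 62 upward (0.337%) and 109 downward (0.592%). At an unadjusted limma p under 0.05 there were 2522 genes (13.7%), so the number called is not a count of all genes that moved. The differences were moderate: the median was 0.62 for the probe sets that rose and -0.62 for those that fell, 5 in each direction reached a size of 1, and the smallest size called was 0.41. The probe sets that fell had a median level of 9.63 with negative siRNA and those that rose one of 8.42, beside 7.53 over all. Over all genes the median difference was 0.02, and 56.7% of genes lay above 0.

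**Figure D1:**
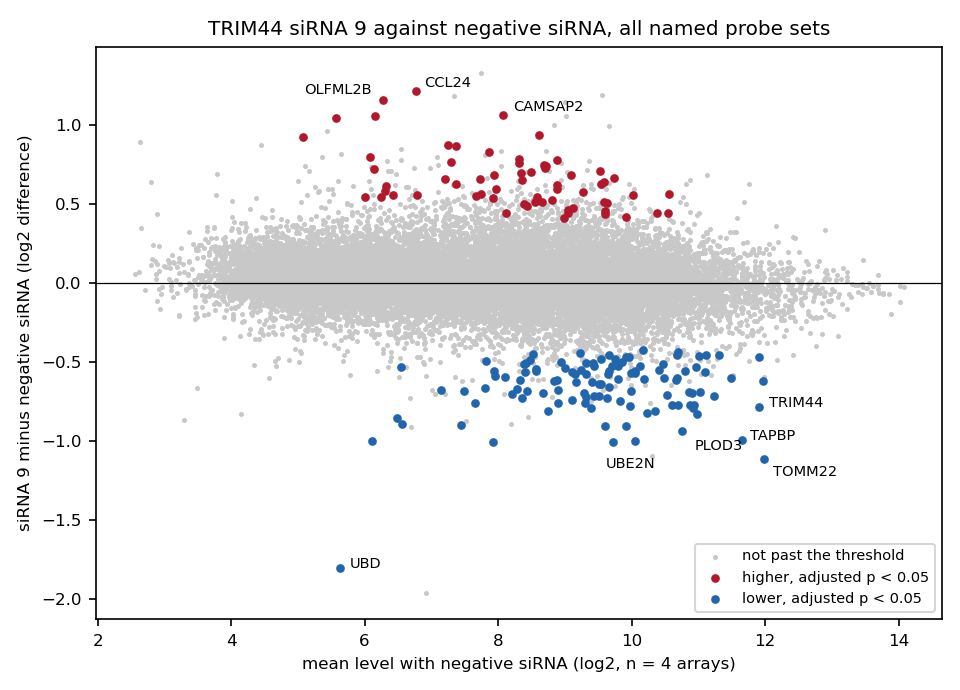
Each point is 1 of 19158 probe sets, with its mean log2 level on the 4 negative arrays on the horizontal axis and the log2 difference of siRNA 9 from negative siRNA on the vertical axis. The 64 red and 113 blue points passed a limma adjusted p of 0.05, and UBD at -1.80 and CCL24 at 1.22 are the largest differences among genes that passed on their brightest probe set.

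The count rests on single arrays. Leaving out negative array 2 gave 1067 (709 higher, 358 lower), or 3.78% of genes higher and 1.88% lower; all 171 genes still passed, and so did 37 genes named here that missed the threshold with all arrays. Leaving out negative arrays 1, 3 and 4 gave 74, 47 and 138. With either siRNA 9 array left out, limma called 0 probe sets, although 1449 (without array 1) and 1543 (without array 2) had an unadjusted p under 0.05, against 2608 with all arrays; the lone siRNA 9 array was then assumed to vary like the other groups. None of the 171 genes turned its direction in any of 16 alternatives, not all of them separate fits. Where both siRNA 9 arrays lay beyond all negative arrays, leaving out an array could not turn the direction. The lack of reversals is therefore no separate support. Of the probe sets that rose, negative array 2 was the negative array nearest to siRNA 9 for 41 of 64, while it was the highest negative array for 27.6% of all probe sets. Of those that fell it was nearest for 46 of 113, beside 42.1% of all probe sets where it was the lowest. The part of negative array 2 in these counts was not tested.

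**Figure D2:**
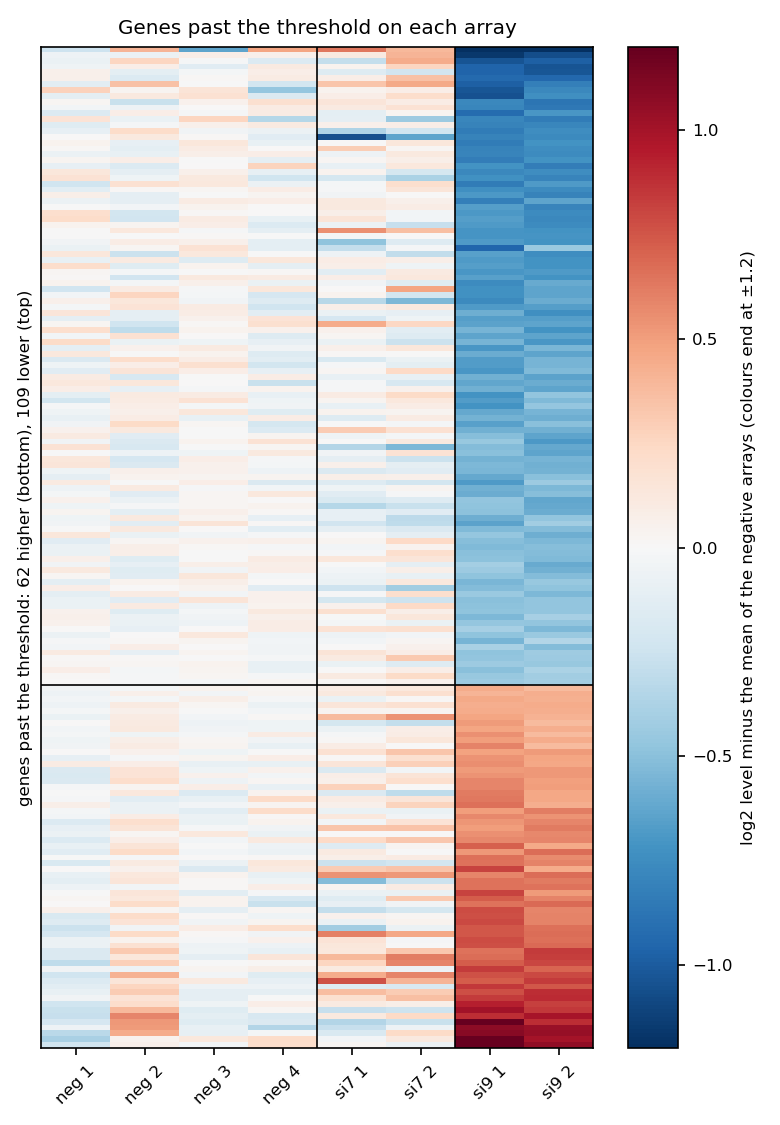
Each row is 1 of the 171 genes past the threshold on its brightest probe set and each column an array, coloured by the log2 level minus the mean of the negative arrays (red higher, blue lower, colours end at a size of 1.2). Both siRNA 9 columns differ from the 4 negative columns over the 109 lower genes at the top and the 62 higher genes at the bottom.

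Genes of the ubiquitin system stood among the largest falls. UBD, which encodes the ubiquitin-like modifier FAT10, read 5.37, 6.03, 5.0 and 6.09 on the negative arrays and 3.84 and 3.80 with siRNA 9. The difference was -1.80 (SE 0.25, adjusted p = 0.0081), but a second UBD probe set differed by 0.17 (adjusted p = 0.524). The negative arrays of the first probe set spread over more than 1 log2 unit, with no overlap with siRNA 9. UBE2N encodes an E2 enzyme that builds ubiquitin chains used in signalling rather than degradation. It read 9.99, 10.13, 9.91 and 10.15 against 9.08 and 9.01, a difference of -1.0 (SE 0.10, adjusted p = 0.00326). UBE2NL, a near-identical copy of UBE2N, differed by -1.01 (SE 0.17, adjusted p = 0.0216), and probes for the pair may share transcripts, so they are not counted as independent.

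PSMB5, the chymotrypsin-like catalytic subunit of the proteasome, read 10.77, 10.89, 10.97 and 11.03 on the negative arrays and 10.12 and 10.13 with siRNA 9. Its difference was -0.79 (SE 0.10, adjusted p = 0.00496). MARCHF3, a membrane-bound ubiquitin ligase, fell by 0.77, and FBXL20, an F-box substrate receptor, by 0.81. RNF26, a ligase of the endoplasmic reticulum, fell by 0.51 and the deubiquitinase USP46 by 0.51. The RING finger genes LONRF1 and MEX3C rose by 0.69 and 0.42 (limma adjusted p = 0.0182 and 0.0462). The ligase genes named here were taken from no fixed list. SPOPL, a substrate adaptor of cullin ligases, rose by 0.78, while the cullin adaptors KLHL11 and KLHL12 fell by 0.52 and 0.50. DESI2, a desumoylating isopeptidase, rose by 0.63, and PIAS3, a SUMO ligase, fell by 0.56.

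In the families around these genes few members passed and the median differences lay near 0. Of 32 E2 enzyme genes, 0 rose and 2 fell (UBE2N and UBE2NL), 11 lay above 0 and the median was -0.04. At an unadjusted limma p under 0.05, 7 of them were lower and 2 higher (5.54% and 8.16% of all genes). Their mean was -0.10 and -0.09 with siRNA 9 and between -0.01 and 0.02 on the negative arrays, relative to the negative mean. UBE2V1, the partner subunit of UBE2N, differed by -0.33 (adjusted p = 0.118). Among 50 ubiquitin-specific proteases 1 fell (USP46) and 25 lay above 0, and USP28 differed by 0.52 (adjusted p = 0.105). Among 82 cullins, adaptors and neddylation genes 1 rose and 2 fell, with a median of 0.02. None of the 57 other TRIM family genes passed: 35 lay above 0 and the median was 0.02, with TRIM41 at -0.40 (adjusted p = 0.07) and TRIM52 at 0.38 (adjusted p = 0.0711). Of 45 proteasome subunits only PSMB5 passed, 19 lay above 0 and the median was -0.02. At an unadjusted limma p under 0.05, 6 of these subunits were lower and 0 higher. These shares stand beside 0.929% called and 56.7% above 0 over all genes.

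TAPBP had the smallest adjusted p of all genes, together with TOMM22. It encodes tapasin, which helps to load peptides on MHC class I molecules, and read 11.71, 11.54, 11.63 and 11.74 on the negative arrays and 10.69 and 10.62 with siRNA 9. The difference was -0.99 (SE 0.09, adjusted p = 0.00245), with no overlap between the groups. Neither of the dimmer TAPBP probe sets passed, at differences of -0.18 (adjusted p = 0.468) and -0.59 (adjusted p = 0.644). With siRNA 7 the same brightest probe set read 11.50 and 11.43, and the reagents differed by -0.80 (adjusted p = 0.00849). Among 18 genes of class I antigen processing UBD and TAPBP fell, 11 lay above 0 and the median was 0.02. The peptide transporter gene TAP2 passed on 1 of its dimmer probe sets, by -0.86 (adjusted p = 0.0357), and differed by -0.35 on the brightest (adjusted p = 0.11); ERAP1, which trims peptides, differed by 0.36 (adjusted p = 0.106).

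TOMM22, the receptor subunit of the outer membrane channel through which mitochondria import proteins, read 11.93, 11.91, 12.06 and 12.05 on the negative arrays and 10.83 and 10.92 with siRNA 9. The difference was -1.11 (SE 0.11, adjusted p = 0.00245), a level lower by 2.16 times, and a second probe set gave -1.01 (adjusted p = 0.00326). Of 11 called genes with more than 1 probe set, TOMM22 was the 1 gene for which all passed. The siRNA 7 arrays read 12.09 and 12.40, above all negative arrays, and the reagents differed by -1.37 (adjusted p = 0.00248). Other mitochondrial genes that fell were DMAC2 by 0.83 and TIMMDC1 by 0.46, both assembly factors of respiratory complex I, NDUFA6, a subunit of that complex, by 0.55, the dicarboxylate carrier SLC25A10 by 0.77, and GLRX5, which serves iron-sulfur cluster assembly, by 0.70. MIGA1, a mitochondrial fusion factor, rose by 0.83, and MRPL50, of the mitochondrial ribosome, by 0.45. Dimmer probe sets of GLRX5 and MIGA1 did not pass, at differences of -0.37 (adjusted p = 0.103) and 0.13 (adjusted p = 0.728).

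As families the mitochondrial genes lay near 0. Of 39 import genes 1 fell (TOMM22) and 17 lay above 0, with a median of -0.01, and TIMM8A differed by 0.50 (adjusted p = 0.0752). Of 76 respiratory chain and ATP synthase subunits 1 fell and the median was -0.03. Of 73 mitochondrial ribosomal protein genes 1 rose, 28 lay above 0 and the median was -0.04. The siRNA 7 medians of these 3 lists were 0.06, 0.01 and 0.07, from the same negative arrays.

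**Figure D3:**
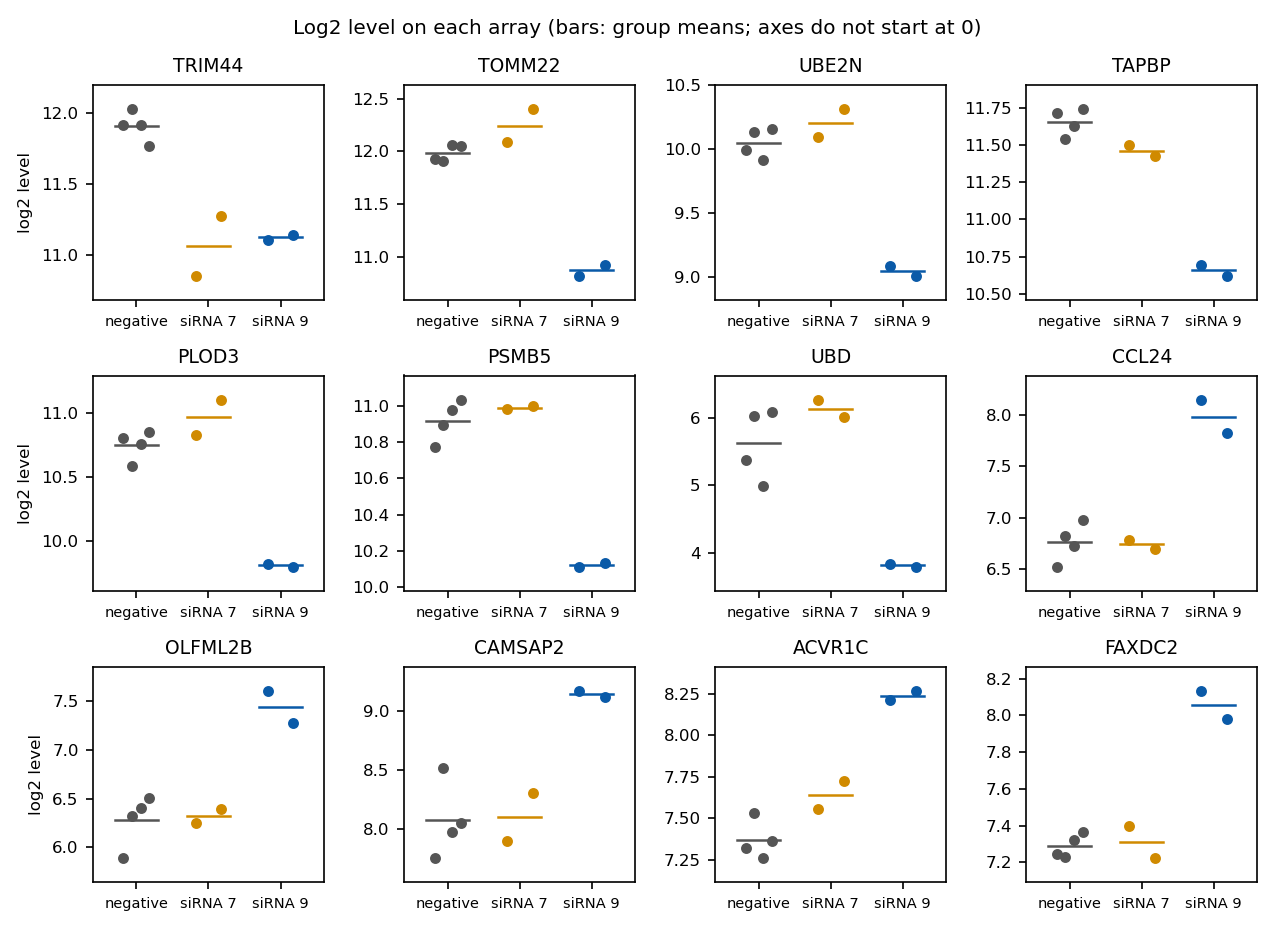
Log2 level of 12 genes on each array, with negative siRNA (n = 4), siRNA 7 (n = 2) and siRNA 9 (n = 2) in columns and bars at the group means; the vertical axes do not start at 0. TOMM22 read 10.83 and 10.92 with siRNA 9 and at least 11.91 on every other array, whereas TRIM44 was low with both reagents.

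PLOD3, a collagen lysyl hydroxylase and glycosyltransferase of the endoplasmic reticulum, read 10.81, 10.58, 10.76 and 10.85 on the negative arrays and 9.82 and 9.80 with siRNA 9. Its difference was -0.94 (SE 0.11, adjusted p = 0.00455). Among 30 collagen modifying enzymes it was the 1 gene that passed, while 20 lay above 0 and the median was 0.05. Its relatives PLOD1 and PLOD2 differed by 0.35 and 0.59 (adjusted p = 0.183 and 0.216), and the prolyl hydroxylase gene P4HA1 by 0.64 (adjusted p = 0.135). Negative array 2 lay with siRNA 9 for the last pair. For PLOD2 it read 10.64, beside siRNA 9 at 10.62 and 10.64 and the other negative arrays at 9.65 to 10.04. For P4HA1 it read 10.21, beside siRNA 9 at 10.28 and 10.32 and the others at 9.38 to 9.61. Without negative array 2, PLOD1, PLOD2 and P4HA1 differed by 0.42, 0.79 and 0.82 and limma called all 3 (adjusted p = 0.0341, 0.00309 and 0.00098). They were among 4 higher and 1 lower of the 30 in that fit, against 3.78% and 1.88% of all genes.

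Single genes of lipid synthesis also fell. SREBF2 encodes the transcription factor that drives cholesterol synthesis genes. It read 11.07, 10.71, 10.89 and 10.75 on the negative arrays and 10.19 and 10.14 with siRNA 9, a difference of -0.69 (SE 0.11, adjusted p = 0.0161). Of the 18 cholesterol synthesis genes measured, SREBF2 is 1 and the 1 that passed. Among the other 17 genes 13 lay above 0 and the median was 0.18, with INSIG1 at 0.43 (adjusted p = 0.167) and IDI1 at 0.34 (adjusted p = 0.254). The mean of the 17 was -0.19, 0.15, -0.04 and 0.09 on negative arrays 1 to 4 and 0.18 and 0.12 with siRNA 9, relative to the mean of the negative arrays, so the groups overlapped. With negative array 2 left out, INSIG1 and IDI1 differed by 0.49 and 0.42 and limma called both (adjusted p = 0.0485 and 0.0383). GPAM, which starts glycerolipid synthesis in mitochondria, fell by 0.70 and ELOVL1, which elongates very long fatty acids, by 0.69; of 26 fatty acid and glycerolipid genes these 2 passed and 17 lay above 0. Other falls were of CDIPT, the phosphatidylinositol synthase, by 0.69, PIGB, which builds membrane anchors of glycosylphosphatidylinositol, by 0.68, PIP4K2C, a phosphatidylinositol phosphate kinase, by 0.66, and FECH, the last enzyme of heme synthesis, by 0.66. The related kinase gene PIP4K2A rose by 0.53.

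Regulators of chromatin and transcription among the falls were HDAC3, the histone deacetylase of nuclear receptor corepressor complexes, PRMT6, an arginine methyltransferase, KDM5B, a histone demethylase, and DPF2, a subunit of a chromatin remodelling complex. HDAC3 read 10.86, 10.84, 11.00 and 11.00 on the negative arrays and 10.13 and 10.17 with siRNA 9, a difference of -0.77 (SE 0.10, adjusted p = 0.00539). PRMT6 fell by 0.62, KDM5B by 0.63 and DPF2 by 0.60, and the thyroid hormone receptor gene THRA by 0.42. The zinc finger gene ZNF33B read 7.72, 7.48, 7.60 and 6.98 on the negative arrays and 6.41 and 6.67 with siRNA 9, a difference of -0.90 (SE 0.17, adjusted p = 0.0342). MTF2, which binds the Polycomb methyltransferase complex, rose by 0.74. POLR3D, a subunit of RNA polymerase III, fell by 0.47.

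The clustered histone genes lay mostly below 0. Their transcripts end in a stem-loop instead of a poly(A) tail and are made mainly while DNA is replicated; their promoters often hold CCAAT boxes and TATA boxes. Of 56 measured genes 2 fell, H2AC4 and H1-5, and 0 rose. Without negative array 2, 8 passed, all lower, against 1.88% of all genes lower in that fit. The median was -0.16 and 8 lay above 0, beside 0.02 and 56.7% over all genes; at an unadjusted p under 0.05 there were 24 lower and 1 higher (5.54% and 8.16% of all genes), and both siRNA 9 arrays lay below all negative arrays for 30 (9.23% of all probe sets). The promoters of the 2 genes that fell are shown for this reason, from 250 bases before to 50 after the RefSeq start (assembly GRCh38.p14), both on the minus strand of chromosome 6, H2AC4 at chr6:26033569-26033868 and H1-5 at chr6:27867539-27867838. They are written 5′ to 3′ with each CCAAT (or ATTGG, its other strand) and each TATAAA in capitals.
H2AC4: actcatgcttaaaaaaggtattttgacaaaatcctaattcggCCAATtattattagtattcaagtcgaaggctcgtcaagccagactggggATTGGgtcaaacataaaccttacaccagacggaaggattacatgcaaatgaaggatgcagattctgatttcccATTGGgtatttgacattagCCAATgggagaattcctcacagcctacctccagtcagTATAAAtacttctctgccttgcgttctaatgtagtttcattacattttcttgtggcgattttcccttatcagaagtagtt
H1-5: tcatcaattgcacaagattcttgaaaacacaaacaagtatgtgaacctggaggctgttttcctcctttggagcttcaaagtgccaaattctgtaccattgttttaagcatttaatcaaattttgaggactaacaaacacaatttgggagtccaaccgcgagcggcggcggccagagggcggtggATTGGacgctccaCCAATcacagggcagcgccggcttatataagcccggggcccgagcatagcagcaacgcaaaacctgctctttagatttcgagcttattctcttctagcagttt

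H2AC4 holds 4 CCAAT and 1 TATAAA, and H1-5 holds 2 CCAAT and 0 TATAAA in this window. CCAAT was found in 86.3% of the 51 histone promoters that matched the RefSeq table, against 35.7% of 27305 promoters of the same length, and TATAAA in 66.7% against 12.0%; both strands were searched, and a CCAAT and a TATAAA can share at most 1 base. These matches describe the letters only, and only the exact TATAAA was searched, so 0 does not mean that H1-5 lacks a TATA box. H2AC4, a gene of histone H2A, read 9.56, 9.55, 9.60 and 9.36 on the negative arrays and 8.84 and 8.76 with siRNA 9 (difference -0.72, SE 0.10, adjusted p = 0.00927). H1-5, a linker histone, read 12.09, 11.96, 12.00 and 11.80 against 11.36 and 11.32 (difference -0.62, SE 0.10, adjusted p = 0.0157). Both siRNA 9 arrays lay below all negative arrays for the pair of genes, and siRNA 7 differed by -0.17 and 0.00 from the same negative arrays.

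None of the other members passed. Among them H4C2 differed by -0.47 (adjusted p = 0.0653), H4C4 by -0.41 (adjusted p = 0.0768), H2AC20 by -0.45 (adjusted p = 0.0817) and H3C7 by -0.60 (adjusted p = 0.128). Core and linker types were among them, and the brightest member, H1-4, stood at 14.02 ± 0.05 (SD, n = 4) and differed by -0.12 (adjusted p = 0.619). The mean over the 56 genes was 0.05, 0.02, 0.00 and -0.07 on negative arrays 1 to 4 and -0.18 and -0.22 with siRNA 9, so both siRNA 9 arrays lay below all negative arrays, negative array 2 included. Many of these genes are near-identical in coding sequence, so probe sets may share transcripts and the members are not independent. Histone chaperones and regulators of histone genes did not lie to 1 side: of 36, 0 passed, 23 lay above 0 and the median was 0.03, with ASF1A at -0.36 (adjusted p = 0.176).

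Cell cycle genes changed in single members. GINS1, a subunit of the replicative helicase, read 10.19, 10.43, 10.34 and 10.46 on the negative arrays and 9.43 and 9.65 with siRNA 9, a difference of -0.81 (SE 0.11, adjusted p = 0.00751). It was the 1 of 47 DNA replication genes to pass, and 24 lay above 0 with a median of 0.01. NEK9, a mitotic kinase, fell by 0.76. None of 48 mitosis genes passed, 18 lay above 0 and the median was -0.06; KIF20A, a motor of cell division, differed by -0.51 (adjusted p = 0.0594) and the proliferation marker MKI67 by 0.39 (adjusted p = 0.157). None of 25 p53 targets passed (median -0.02, TNFRSF10B at -0.41 with adjusted p = 0.067), nor of 27 apoptosis regulators (median 0.07, APAF1 at 0.62 with adjusted p = 0.135). For APAF1, which forms the apoptosome, negative array 2 read 6.92, near siRNA 9 at 7.14 and 7.01 and above the other negative arrays at 6.06 to 6.45. Without it APAF1 differed by 0.78 (adjusted p = 0.00454) and MKI67 by 0.48 (adjusted p = 0.0145).

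The largest rise was of CCL24, a chemokine that attracts eosinophils. It read 6.53, 6.82, 6.73 and 6.98 on the negative arrays and 8.14 and 7.82 with siRNA 9, a difference of 1.22 (SE 0.13, adjusted p = 0.00326) or 2.33-fold. It was the 1 of 58 chemokine and receptor genes to pass, and 32 lay above 0 with a median of 0.02. The neighbouring family member CCL26 differed by 0.41 (adjusted p = 0.0921), and the receptor gene CXCR4 by 0.85 (adjusted p = 0.105). CXCR4 read 7.12 on negative array 2, near siRNA 9 at 7.38 and 7.42, and 6.04 to 6.65 on the other negative arrays. Without that array its difference was 1.04 (adjusted p = 0.00366). With siRNA 7 CCL24 read 6.79 and 6.70, within the negative arrays, and the reagents differed by 1.24 (adjusted p = 0.00523).

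Other large rises were of genes with varied roles. OLFML2B, of the olfactomedin-like family, read 5.89, 6.32, 6.41 and 6.50 on the negative arrays and 7.60 and 7.28 with siRNA 9 (difference 1.16, SE 0.16, adjusted p = 0.00751). CYP39A1, an oxysterol hydroxylase, read 6.10, 6.67, 6.07 and 5.80 against 7.23 and 7.20 (difference 1.06, SE 0.18, adjusted p = 0.0219). MAB21L3 read 5.36, 6.08, 5.43 and 5.39 against 6.77 and 6.46 (difference 1.05, SE 0.18, adjusted p = 0.0219). For CYP39A1 and MAB21L3 negative array 2 was the highest of the negative arrays, though below siRNA 9, and without it the differences were 1.23 and 1.22 (adjusted p = 0.000546 and 0.000385). TMEM45A rose by 0.93 and TENT5C, a poly(A) polymerase, by 0.88. GDA, guanine deaminase, rose by 0.94, with negative array 2 at 9.19, the other negative arrays between 8.33 and 8.49 and siRNA 9 at 9.49 and 9.60, and passed in 4 of the 14 alternatives that kept both siRNA 9 arrays. Leaving out either siRNA 7 array repeats the fit of only the arrays compared, so these 14 are not all separate checks. GDA differed by 1.13 without negative array 2 (adjusted p = 0.000355). SAMD5 rose by 0.78, DPY19L1, of a family of C-mannosyltransferases, by 0.76, and A1CF, an RNA-binding cofactor of apolipoprotein B mRNA editing, by 0.73. A1CF read 8.89 on negative array 2, 8.63 to 8.64 on the other negative arrays and 9.47 and 9.38 with siRNA 9.

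Receptors and signalling genes among the rises included ACVR1C, a receptor of the activin and nodal branch of TGF-beta signalling. It read 7.32, 7.53, 7.26 and 7.36 on the negative arrays and 8.21 and 8.26 with siRNA 9, a difference of 0.87 (SE 0.10, adjusted p = 0.00455). MAP3K1, a kinase upstream of JNK, rose by 0.64, the serum and glucocorticoid regulated kinase SGK1 by 0.56, the R-spondin receptor LGR6 by 0.55 and the hedgehog receptor PTCH1 by 0.51. YAP1, the transcriptional effector of the Hippo pathway, rose by 0.46 and NF2, which acts upstream in that pathway, fell by 0.75. NF2 read 9.71, 9.84, 9.85 and 9.92 against 9.09 and 9.07, without overlap, and YAP1 9.57, 9.73, 9.57 and 9.55 against 10.08 and 10.04. MAPK6, an atypical MAP kinase, fell by 0.90.

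Transporter genes that rose included the solute carriers SLCO5A1 by 0.62, SLC17A4 by 0.61 and SLC16A10, an aromatic amino acid transporter, by 0.58. The magnesium transporter NIPAL1 rose by 0.75, the flippase ATP10B by 0.66 and the scramblase PLSCR4 by 0.80. Rises of other kinds were of UGT2B4, a glucuronosyltransferase, by 0.56, versican (VCAN) by 0.54 and the desmosomal cadherin DSC2 by 0.44. ANO1, a calcium-activated chloride channel, fell by 0.70 and the amyloid precursor-like gene APLP2 by 0.71. APLP2 read between 10.52 and 10.54 on all 4 negative arrays and 9.82 on both siRNA 9 arrays. FAXDC2 rose by 0.77, from 7.24, 7.23, 7.32 and 7.36 to 8.13 and 7.98.

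Microtubule genes passed the threshold in both directions. CAMSAP2, which binds the minus ends of microtubules, read 7.76, 8.52, 7.97 and 8.05 on the negative arrays and 9.17 and 9.12 with siRNA 9, a difference of 1.07 (SE 0.18, adjusted p = 0.0182), or 1.21 without negative array 2 (adjusted p = 0.000939). MAPRE1, which tracks the plus ends, fell by 0.60 and the tubulin polymerisation gene TPPP by 0.57; of 37 microtubule stability genes 1 rose, 2 fell, 15 lay above 0 and the median was -0.03. ATG4D and ATG16L1, of the autophagy conjugation system, fell by 0.57 and 0.49 among 41 core autophagy genes, 27 of which lay above 0 (median 0.05). SCARB2, a lysosomal membrane protein, fell by 0.61 and was the 1 of 37 lysosome genes to pass (median -0.04), while GM2A differed by -0.49 (adjusted p = 0.0522). Genes of sorting and of the Golgi, taken from no fixed list, that fell were AP4E1 by 0.76, VPS28 by 0.57, CHMP6 by 0.51, GORASP2 by 0.47 and COPZ1 by 0.45. The Golgi gene TMEM87A and the sorting nexin gene SNX30 rose by 0.67 and 0.41 (limma adjusted p = 0.0285 and 0.0457). PEX19, which imports peroxisomal membrane proteins, fell by 0.58. None of 39 mTOR pathway genes passed (median -0.01).

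RNA-handling genes included UHMK1, a kinase of splicing factors, which rose by 0.71, and PTBP2, a splicing repressor, which fell by 0.64; these were the 2 of 50 splicing regulators to pass. SAMD4B, an RNA-binding repressor of translation, fell by 0.82 and ZCCHC8, of a nuclear exosome targeting complex, by 0.76. FCF1, of ribosomal RNA processing, fell by 0.79, CDKAL1, which modifies tRNA, by 0.78, and BZW2, which regulates translation initiation, by 0.77. EIF2S3B fell by 0.89 (SE 0.13, adjusted p = 0.00921); EIF2S3, the nearly identical gene for a subunit of initiation factor eIF2, differed by -0.24 (adjusted p = 0.279), and their transcripts may share probes. TNRC6A, the Argonaute partner in silencing by small RNAs, rose by 0.47 and was the 1 of 25 small RNA machinery genes to pass (median 0.07). None of 33 ribosome biogenesis, 61 cytosolic ribosomal protein or 189 small nucleolar RNA genes passed, with medians of -0.01, -0.03 and 0.07. The mean of the small nucleolar RNA genes was 0.19 on negative array 2, above both siRNA 9 arrays at 0.12 and 0.06. Without that array 19 of the 189 passed upward and 0 downward, against 3.78% and 1.88% of all genes.

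**Figure D4:**
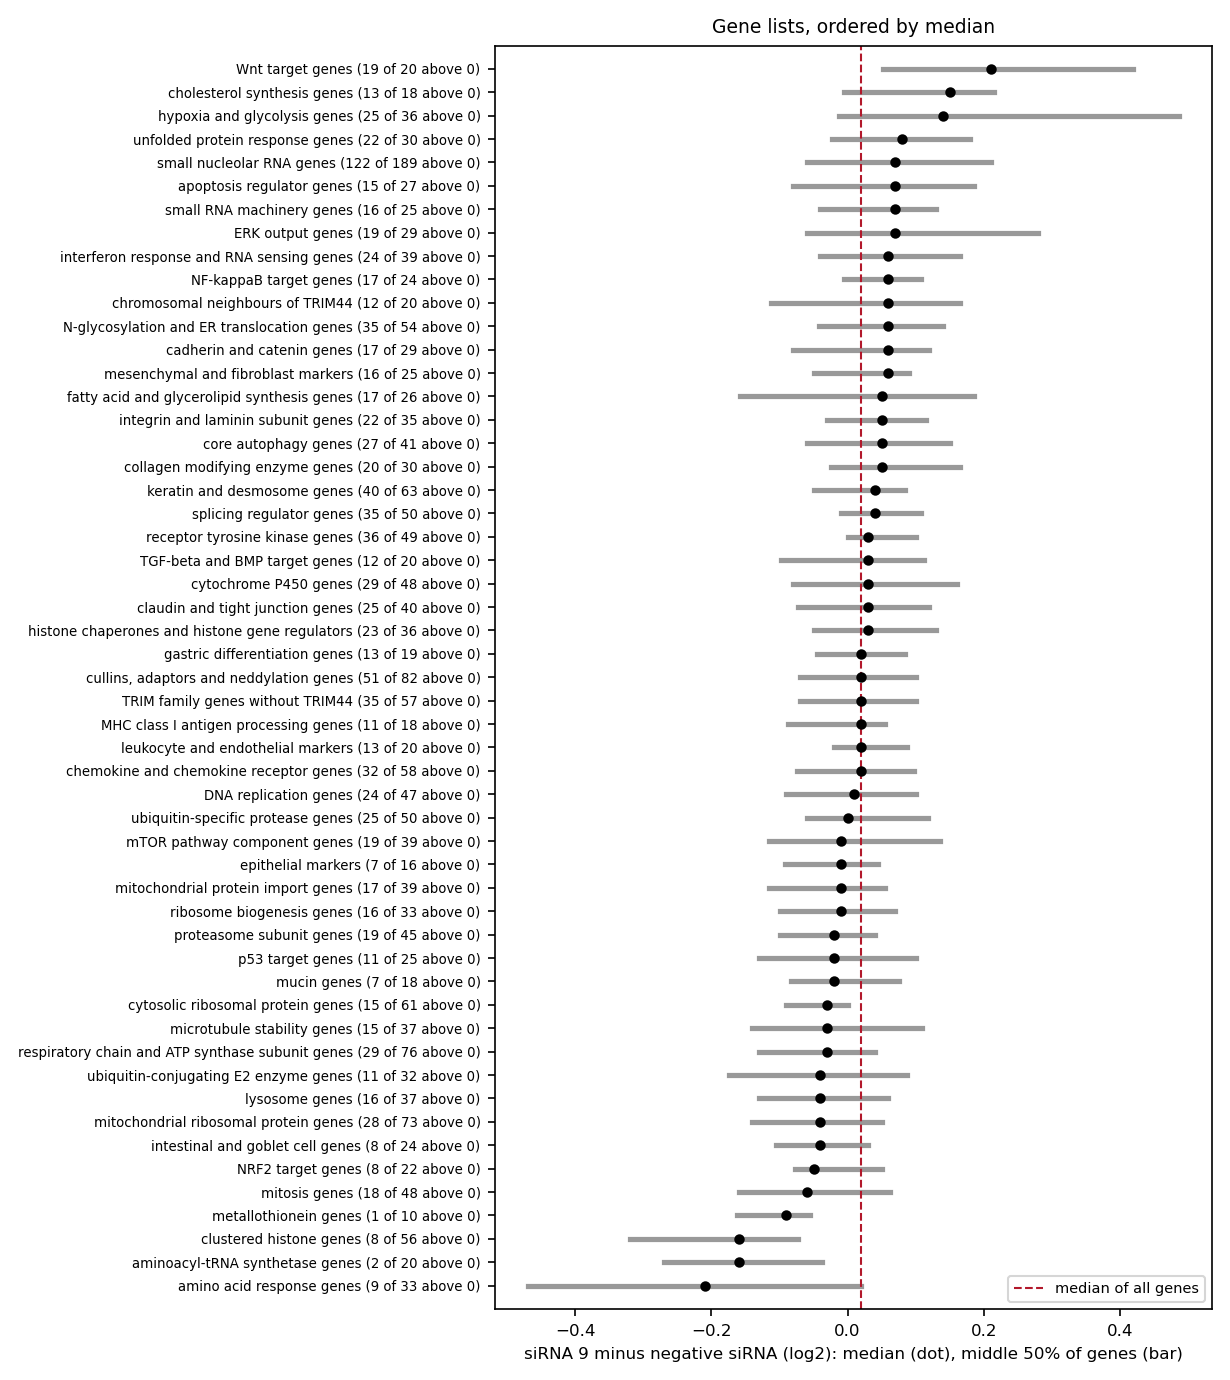
Median log2 difference of siRNA 9 from negative siRNA (dots) and the middle 50% of genes (bars) in each of 53 gene lists, ordered by median, with the median of all genes, 0.02, as a dashed line. Amino acid response genes, at -0.21, stand at the low end and Wnt targets, at 0.21, at the high end.

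Wnt target genes lay almost all above 0, with none past the threshold. Of 20, 19 lay above 0 and the median was 0.21, and at an unadjusted p under 0.05 there were 10 higher and 0 lower; over all genes 56.7% lay above 0, and 8.16% were higher and 5.54% lower at that p. Without negative array 2, 3 of the 20 passed, all higher, against 3.78% of all genes higher in that fit. Over the alternatives the median lay between 0.18 and 0.28. BMP4, a growth factor and Wnt target, read 9.22, 9.93, 9.62 and 9.90 on the negative arrays and 10.69 and 10.63 with siRNA 9 (difference 0.99, adjusted p = 0.0519). AXIN2, the feedback inhibitor of the pathway, read 7.95, 7.85, 8.01 and 8.08 against 8.47 and 8.30 (difference 0.41, adjusted p = 0.0811). PROX1, NKD1 and CCND1 differed by 0.51, 0.45 and 0.41 (adjusted p = 0.103, 0.105 and 0.104). The mean over the list was -0.04, -0.05, -0.01 and 0.10 on the negative arrays, 0.01 and 0.21 with siRNA 7 and 0.31 and 0.22 with siRNA 9. On this list negative array 2 did not stand with siRNA 9.

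Amino acid response genes, which ATF4 controls when amino acids are short, lay mostly below 0: 9 of 33 lay above 0, the median was -0.21 (-0.26 to -0.13 over the alternatives) and none passed. CHAC1, which breaks down glutathione, read 10.58, 9.83, 10.55 and 10.29 on the negative arrays and 9.25 and 9.18 with siRNA 9 (difference -1.10, adjusted p = 0.154). DDIT4, an inhibitor of mTOR, read 10.35, 10.09, 10.45 and 10.18 against 9.54 and 9.48 (difference -0.76, adjusted p = 0.0748), and ATF4 differed by -0.40 (adjusted p = 0.128). Without negative array 2, 5 of the 33 passed, all lower, against 1.88% of all genes lower in that fit. Among the 5 were CHAC1 at -1.26 (adjusted p = 0.0401) and DDIT4 at -0.82 (adjusted p = 0.0234). For both of these genes negative array 2 was the lowest negative array. The mean over the list split the replicates within groups. Negative arrays 1 to 4 stood at 0.19, -0.16, 0.13 and -0.16, siRNA 7 stood at 0.17 and -0.31, and siRNA 9 at -0.17 and -0.27. The 20 aminoacyl-tRNA synthetase genes, several of them targets of ATF4, had 2 members above 0, a median of -0.16 and none past the threshold; MARS1 differed by -0.43 (adjusted p = 0.195). GCN1, which activates the kinase of this response, fell by 0.46. Unfolded protein response genes, another stress branch, lay at a median of 0.08 (22 of 30 above 0, none past the threshold).

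Hypoxia and glycolysis genes had 25 of 36 above 0 and a median of 0.14, with none past the threshold. KDM3A, a histone demethylase induced by low oxygen, read 8.43, 9.55, 8.67 and 8.67 on the negative arrays and 9.89 and 9.77 with siRNA 9 (difference 1.0, adjusted p = 0.0859). HILPDA, a lipid droplet protein, read 8.98, 9.72, 9.24 and 9.36 against 10.11 and 9.98 (difference 0.72, adjusted p = 0.0727). The list mean was 0.22 on negative array 2, within the siRNA 9 arrays at 0.26 and 0.21, and between -0.18 and 0.02 on the other negative arrays. Without negative array 2 the list median was 0.23, and 13 of the 36 passed, all higher, against 3.78% of all genes. Negative array 2 was also near siRNA 9 for single genes of other lists. EGR1, an immediate early gene, read 9.16, 10.60, 9.16 and 9.30 against 10.76 and 10.74 (difference 1.19, adjusted p = 0.117). The integrin gene ITGA5 read 8.47, 10.02, 8.74 and 8.78 against 10.21 and 10.10 (difference 1.15, adjusted p = 0.126). Without negative array 2 the differences were 1.24 for KDM3A, 0.85 for HILPDA, 1.54 for EGR1 and 1.49 for ITGA5. In that fit limma called all 4 (adjusted p = 0.000653, 0.00366, 8.35e-05 and 0.000232). Negative array 2 was the highest negative array for each of these genes, so leaving it out had to widen their differences.

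**Figure D5:**
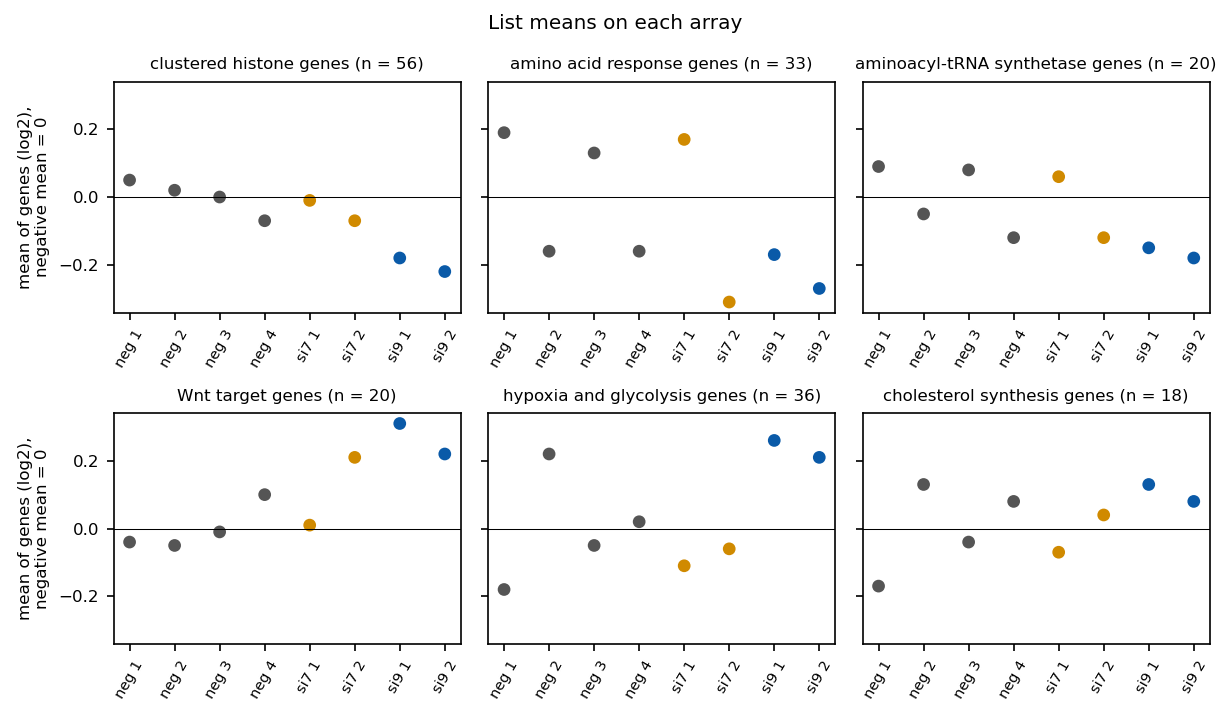
Mean over the genes of 6 lists on each array, as the log2 level minus the mean of the negative arrays, for negative siRNA (n = 4), siRNA 7 (n = 2) and siRNA 9 (n = 2). The siRNA 9 arrays lie below all negative arrays for histones (-0.18 and -0.22) and above them for Wnt targets (0.31 and 0.22), while negative array 2, at 0.22, lies beside them for hypoxia and glycolysis genes.

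Genes of cell identity and adhesion showed few calls. Of 16 epithelial markers 0 passed, and E-cadherin (CDH1) differed by -0.38 (adjusted p = 0.0711) and ESRP2 by -0.38 (adjusted p = 0.143), at a list median of -0.01. Of 25 mesenchymal and fibroblast markers 1 fell, S100A4, a calcium-binding protein, by 0.47, and 16 lay above 0 (median 0.06). None of 19 gastric differentiation genes, 24 intestinal and goblet cell genes, 18 mucins or 20 leukocyte and endothelial markers passed; their medians were 0.02, -0.04, -0.02 and 0.02, and SOX2, a stomach transcription factor, differed by 0.46 (adjusted p = 0.0821). Of 63 keratin and desmosome genes DSC2 rose. None of 29 cadherin and catenin genes, 40 claudin and tight junction genes or 35 integrin and laminin genes passed, with medians of 0.06, 0.03 and 0.05.

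Signalling and defence lists held no gene past the threshold. None of 24 NF-kappaB targets, 39 interferon response and RNA sensing genes, 20 TGF-beta and BMP targets, 29 ERK output genes or 49 receptor tyrosine kinase genes passed, with medians of 0.06, 0.06, 0.03, 0.07 and 0.03. ERK output genes, which respond to MAP kinase signalling, had 10 higher and 1 lower of 29 at an unadjusted p under 0.05 (8.16% and 5.54% of all genes), and for 11 both siRNA 9 arrays lay above all negative arrays (13.4% of all probe sets). Their median was 0.06 to 0.15 over the alternatives. Their mean was 0.07 on negative array 2, between -0.05 and 0.00 on the other negative arrays and 0.17 and 0.12 with siRNA 9. Without negative array 2, 7 passed, EGR1 among them, all higher, against 3.78% of all genes higher in that fit. ID2, a target of BMP signalling, differed by -0.43 (adjusted p = 0.0795), and the viral RNA sensor gene TLR3 by 0.59 (adjusted p = 0.19), or 0.73 without negative array 2 (adjusted p = 0.0291). None of 22 NRF2 targets passed (median -0.05), nor of 10 metallothioneins (median -0.09, 1 above 0), nor of 54 genes of N-glycosylation and ER translocation (median 0.06). Of 48 cytochrome P450 genes CYP39A1 rose (median 0.03). The 20 measured neighbours of TRIM44 on its chromosome lay at a median of 0.06 with none past the threshold, and NAT10, an RNA acetyltransferase gene there, differed by -0.38 (adjusted p = 0.0859).

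The reagents were also compared directly for the genes named. In siRNA 9 against siRNA 7, 428 of 19158 probe sets passed (2.23%), 271 higher and 157 lower, or 170 and 181 after centring each array on its median. In siRNA 7 against negative siRNA 13 passed (0.0679%). Of the 64 probe sets that rose with siRNA 9, 32 differed between the reagents, and of the 113 that fell, 77; these comparisons share the siRNA 9 arrays, so the counts do not support each other. For the same probe sets siRNA 7 had median differences of 0.06 and 0.01 from the shared negative arrays. Its difference had the same sign for 44 of the 64 and 54 of the 113. It reached at least 50% of the siRNA 9 difference for 10 and 8 of them. Only 1 of these probe sets, that of TRIM44, also passed in siRNA 7 against negative siRNA. For UBE2N the reagents differed by -1.15 (95% interval -1.41 to -0.89), for PLOD3 by -1.15 and for PSMB5 by -0.86 (adjusted p = 0.00264, 0.00264 and 0.00618). For UHMK1, DESI2 and MRPL50, which rose with siRNA 9, the reagents differed by 0.18, 0.10 and -0.01 (adjusted p = 0.601, 0.757 and 0.981). UHMK1 read 10.13 and 10.00 with siRNA 7 and 10.28 and 10.20 with siRNA 9, both pairs above negative arrays at 9.33, 9.76, 9.54 and 9.49. A p that misses the threshold does not show that the reagents act alike; for DESI2 the 95% interval of their difference was -0.14 to 0.34.

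Gene length was read from the annotation and not tested. The genes that rose had a median span on the genome of 67.5 kb and those that fell one of 31.7 kb, beside 24.5 kb over 18376 genes with a value in RefSeq. For single genes with several probe sets the calls differed in places. EIF3F, LYPLA2 and TAP2 fell, and DNAJB6 and BMP8B rose, past the threshold only on a probe set that was not the brightest. The brightest probe sets of LYPLA2, TAP2, BMP8B and DNAJB6 differed in the same direction, by -0.48, -0.35, 0.32 and 0.15. Their limma adjusted p-values were 0.111, 0.11, 0.162 and 0.638. EIF3F differed by -1.0 on its dimmer probe set (adjusted p = 0.0236) and by 0.06 on the brightest (adjusted p = 0.848).

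A core of 18 genes passed in every alternative that tested them and kept both siRNA 9 arrays, 14 alternatives in all, some of them the same fit. The 13 lower ones were APLP2, BZW2, CDKAL1, HDAC3, NF2, PLOD3, PSMB5, SAMD4B, STK40, TAPBP, TBC1D13, TOMM22 and UBE2N. The 5 higher ones were ACVR1C, CCL24, DAPL1, DCBLD1 and FAXDC2. DCBLD1 read 8.29, 8.32, 8.38 and 8.44 on the negative arrays and 9.02 and 9.01 with siRNA 9. STK40, a kinase-like regulator, read between 9.59 and 9.67 on the negative arrays and 8.96 and 8.84 with siRNA 9, and the Rab regulator TBC1D13 fell by 0.74. TRIM44 itself passed in 13 of the 14 and missed among all 32321 probe sets, where its adjusted p was 0.0857. Leaving out either siRNA 7 array gave the same fit as using only the arrays compared (157 probe sets called each time). Those alternatives are therefore not separate checks, and the 14 overstate how many were made.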

How the data were processed

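Gene expression was measured in HSC39 cells on Affymetrix whole-transcript arrays. The authors deposited a log2 value for each of 32321 probe sets on every array. The submitters' processing notes name limma; for background correction, normalization and build, nothing is given in the sources used here. At any rank the sorted values of the arrays lay within 0.180 of each other, so the deposited log2 values had near-equal distributions, and a shift shared by all genes would not show. Without signal over background, dim and absent transcripts are not separated here, and precision is limited by the small number of arrays.

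Of the probe sets, 19158 have exactly 1 symbol in the platform annotation (1388 have several, 11775 none). For 19128 of those 19158 probe sets the gene ID was found in a RefSeq table of GRCh38.p14, and 0 symbols changed. A gene stands for its probe set of highest mean; 637 genes have more than 1. limma (3.58.1, R 4.3.3) fitted 3 group means over all 8 arrays, with 2-sided moderated tests, p-values adjusted by Benjamini-Hochberg over those 19158 and called under 0.05; each adjusted p is from this fit. The fit was tested on simulated data with independent noise on each array. That test does not cover a shift that 1 array shares over many genes. Figures were drawn with matplotlib 3.10.9.

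The members, the 53 gene lists (2031 different genes measured) and the tests were chosen with earlier results of these data known. Lists are described by counts and medians, without a test. Genes named are TRIM44, the 20 largest rises and falls past the threshold, others past it by role, up to 5 further members per list by smallest p, and the brightest member of a list. EIF2S3 was named after its values were seen, as the near copy of EIF2S3B. Alternatives changed the scaling (quantiles or array medians), the probe sets tested (the upper 50% by level, or also those without a single symbol), the variance prior (trended and robust), the weights of arrays, the block (replicate number) and the arrays fitted (only the 6 compared, or 1 left out).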

Additional observations from a re-analysis of the deposited data

Results flagged for a closer look

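In 7 of the 150 genes tested for it and in 2 gene lists, 1 of the 4 negative arrays was flagged as a stray from the other 3. Chance gives this in about 1 of 20 groups, and the share of genes was near that. The flag does not rank strays by size. KDM3A was not flagged, although it read 9.55 on negative array 2 and 8.43 to 8.67 on the other negative arrays. Negative array 2 was the stray one for EGR1, at 10.60 against 9.16 to 9.30, for MAB21L3, at 6.08 against 5.36 to 5.43, for MIGA1, at 8.16 against 7.75 to 7.76, for YAP1, at 9.73 against 9.55 to 9.57, and for A1CF, at 8.89 against 8.63 to 8.64. In each of these 5 genes it lay on the side of the siRNA 9 arrays. Negative array 4 was the stray one for CDH1, at 11.93 against 12.04 to 12.06, and for UBE2V1, at 11.77 against 11.81 to 11.82. The mean of the small nucleolar RNA genes was 0.19 on negative array 2 and between -0.09 and -0.04 on the other negative arrays. The mean of the collagen modifying enzyme genes was 0.05 on negative array 4 and between -0.02 and -0.01 on the others.

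Probe sets left out of the report because they carry no symbol or several were tested among all 32321. Of these, 6 passed a limma adjusted p of 0.05, 2 with several symbols and 4 with none. The largest difference, -3.03 (adjusted p = 0.038), was of a probe set with several symbols that read 6.44, 6.03, 7.43 and 6.10 on the negative arrays and 3.20 and 3.74 with siRNA 9. Another with several symbols differed by 1.81 (adjusted p = 0.0278).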

How the results depend on the processing

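Against 177 probe sets (64 higher, 113 lower) in siRNA 9 against negative siRNA and 428 in siRNA 9 against siRNA 7, limma called 390 and 703 among the upper 50% of probe sets by level, 28 and 8 among all probe sets, 405 and 792 with a trended and robust prior and 2082 and 1063 with array weights. The cause of these shifts was not tested; among all probe sets both the number tested and the fit changed, and 2260 of the 19158 had an unadjusted p under 0.05 there, against 2608. Leaving out each array in turn gave 0 to 1067 and 0 to 1050; at 0, with 1 siRNA 9 array, 1449 and 1543 probe sets (siRNA 9 against negative siRNA) and 1931 and 2003 (against siRNA 7) had an unadjusted p under 0.05. Quantile normalization, median centring and only the 6 arrays compared kept the first count within 1.5 times (227, 167 and 157). TRIM44 differed by -0.83 to -0.74 over the arrays left out and passed except without a siRNA 9 array (adjusted p = 0.24 and 0.203); among all probe sets it was -0.78 (adjusted p = 0.0857). Of the 171 genes called, 169 passed after quantile normalization, 151 after centring and 21 among all probe sets.

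The replicate number as a block gave 44 probe sets (8 higher, 36 lower), 450 between reagents and -0.85 for TRIM44 (adjusted p = 0.0466). Under it 39 of the 171 genes passed. Deviations of same-numbered arrays correlated at 0.058 and 0.131 (negative with siRNA 9), 0.268 and 0.306 (negative with siRNA 7) and 0.024 and 0.024 (siRNA 7 with siRNA 9). The labels do not say that the numbers pair the samples, so the fit without the block is reported.

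Among the genes named, 1700 values under an alternative kept their direction and side of the threshold, 521 no longer passed and 141 newly passed; 0 reversed. Of the list medians, 778 moved by less than the spread between negative arrays and 70 by more.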
